A study of Mus musculus with 6 samples.

Results

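The general splicing factor genes followed here are those whose single gene symbol starts with Srsf, Hnrnp, Sf3a or Sf3b, together with U2surp. The symbols came from GEO's annotation of the array, which gave 39 such genes read by 125 of 45037 probe sets. A probe set is a group of short probes for 1 transcript region. Another 7 probe sets list several symbols, of which 1 matches, and were left out. RNA came from the adrenal medulla of male C57/Bl6 mice 8 weeks after surgery, which was either TAC (transverse aortic constriction, a band that makes the heart pump against a raised pressure) or a sham operation. There were 3 animals per group, and each of the 6 Affymetrix mouse genome arrays held RNA from both medullae of 1 animal. According to the labels, the tissue was microdissected from cryosections and its RNA passed through a 2-cycle amplification that starts at the 3′ end. The labels name no genetic change in either group.

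Pre-mRNA splicing removes introns in the nucleus. SR proteins (the Srsf genes) bind exons through RNA recognition motifs, recruit the spliceosome through domains rich in arginine and serine, and mostly promote the use of an exon. The hnRNP proteins coat nascent transcripts and often act against SR proteins, and several also govern mRNA export, stability and translation. SF3a and SF3b are the protein complexes of the U2 small nuclear ribonucleoprotein (snRNP), which selects the branch point of each intron, and U2surp encodes a U2-associated protein with an SR-like domain. Chromaffin cells, which make up most of the medulla and release catecholamines, use alternative exons in ion channel genes such as the calcium-activated potassium channel gene Kcnma1.

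Promoter sequence was 1 feature of these genes that the choice of symbols did not use. A RefSeq table of promoters of assembly GRCm38.p6 held 35 of the 39 genes, and the 250 bases before each gene's most upstream start were searched on both strands for 4 short motifs, with overlapping matches counted. The letters CCGGAAG, the core recognised by ETS factors, were present in 6 of 7 SF3 promoters, 3 of 10 SR protein promoters and 2 of 17 hnRNP promoters. They were present in 12 of the 35 promoters (34.3%), U2surp among them. The share was 14.1% of the 8261 promoters whose gene had a tested probe set, and 7.07% of all 27025 promoters in the table. The CCAAT box (CCAAT) was present in 11 of 17 hnRNP promoters, 3 of 10 SR protein promoters and 2 of 7 SF3 promoters. In all it was present in 16 of the 35 (45.7%), against 36.0% of those 8261 and 34.5% of all. The GC box (GGGCGG) was present in 26 of the 35 (74.3%, against 60.7% and 33.0%) and the TATA box (TATAAA) in 4 of the 35 (11.4%, against 6.28% and 13.0%). The median promoter of the 35 held 22 CpG dinucleotides, against 16 among the 8261. These are matches of letters and no measure of binding. The promoters of Sf3a2 (chr10:80798485-80798734, plus strand), U2surp (chr9:95511997-95512246, minus strand), Srsf4 (chr4:131873387-131873636, plus strand) and Hnrnpk (chr13:58402118-58402367, minus strand) are printed 5′ to 3′ as RefSeq gives them. Sf3a2 and Srsf4 have the smallest p-values of the SF3 and SR groups, and U2surp is the only gene of its group. All of these show the ETS core and GC box. Hnrnpk, chosen for the brightest hnRNP probe set, shows paired CCAAT boxes. Of other genes with an unadjusted p under 0.05 in limma, Srsf11 and Hnrnpd hold the ETS core. Sf3b1, Hnrnpu and Hnrnpl lack it, and Sf3b4 was not among the 35. Capitals mark the motifs on either strand.
Sf3a2: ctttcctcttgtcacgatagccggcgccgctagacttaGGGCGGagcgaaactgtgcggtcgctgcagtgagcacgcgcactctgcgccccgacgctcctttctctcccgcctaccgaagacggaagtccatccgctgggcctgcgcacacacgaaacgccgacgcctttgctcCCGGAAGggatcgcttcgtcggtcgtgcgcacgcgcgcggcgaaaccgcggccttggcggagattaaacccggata
U2surp: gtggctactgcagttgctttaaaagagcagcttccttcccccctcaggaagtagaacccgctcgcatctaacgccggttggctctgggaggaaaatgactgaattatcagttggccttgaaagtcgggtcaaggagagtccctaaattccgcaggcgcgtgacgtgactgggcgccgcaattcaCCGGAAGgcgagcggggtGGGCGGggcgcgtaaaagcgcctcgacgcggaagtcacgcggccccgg
Srsf4: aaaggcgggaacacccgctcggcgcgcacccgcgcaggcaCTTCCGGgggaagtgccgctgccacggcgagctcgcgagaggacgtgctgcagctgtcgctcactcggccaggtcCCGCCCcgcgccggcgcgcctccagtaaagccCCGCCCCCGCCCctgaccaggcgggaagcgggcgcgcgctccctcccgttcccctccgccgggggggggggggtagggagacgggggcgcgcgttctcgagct
Hnrnpk: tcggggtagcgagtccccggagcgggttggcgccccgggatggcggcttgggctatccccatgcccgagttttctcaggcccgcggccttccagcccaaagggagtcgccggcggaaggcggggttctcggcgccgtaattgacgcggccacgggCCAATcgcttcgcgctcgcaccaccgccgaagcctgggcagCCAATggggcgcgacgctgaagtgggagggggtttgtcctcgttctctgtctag

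The arrays differed among themselves in ways that touch every value below. Values are log2 intensities, differences are TAC minus sham on that scale, SD is the spread of the 3 arrays of a group, and SE is the error limma gives a difference. Coverage of transcripts away from the 3′ end, which RNA shortening and the amplification can both set, was followed with the array's controls for Gapdh. The control near the 3′ end exceeded that near the 5′ end by 4.71, 3.67 and 3.98 in TAC 1, 2 and 3 and 5.15, 3.08 and 2.88 in sham 1, 2 and 3 (exact 2-sided permutation p = 0.6, smallest possible 0.1). TAC 1 and sham 1 were the arrays with the largest difference in their groups. The labelled tissue was borne out by 9 of 10 chromaffin markers past the filter, with an array mean of 12.36 to 13.12 after TAC and 12.34 to 12.82 after sham. Adrenal cortex markers were also present (7 of 11 past the filter), with an array mean from 6.77 to 9.65 after TAC and from 6.81 to 10.94 after sham (exact permutation p = 0.9). Fibroblast and matrix markers (8 of 9) had array means from 6.38 to 7.52 after TAC and 7.23 to 8.55 after sham (difference -1.06, exact permutation p = 0.2). Of these 8, 7 were lower after TAC and 4 had an unadjusted p under 0.05 in limma (7.29% of all genes at their brightest probe set). Neuron markers were also lower at 7 of 8, with 2 at an unadjusted p under 0.05. The other 5 marker lists (endothelium, smooth muscle, Schwann and sustentacular cells, macrophages and neurons) gave exact permutation p-values from 0.4 to 1, and the endothelial markers Pecam1, Cdh5 and Kdr were below the filter. The part of these cells and of 3′ coverage in the results was not tested beyond the fits given here. In dissected tissue, fewer cells of a type and less RNA per cell cannot be told apart.

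TAC and sham were compared to find splicing factor genes whose RNA differs in the medulla under cardiac pressure overload, and no member passed the threshold. A probe set was tested if its log2 value reached 4 on at least 3 of the 6 arrays. That left 107 of the 125 member probe sets, and all 39 genes kept at least 1. The 18 others had values from 1.59 to 4.96. In limma, 0 of the 107 had an adjusted p under 0.05, as did 0 of all 18188 tested probe sets (0%). At an unadjusted p under 0.05 there were 10 member probe sets of 9 genes (9.35%), where the share over all tested probe sets was 6.94%. Of the 10, 7 were higher and 3 lower after TAC, against 4.65% higher and 2.29% lower over all. The groups did not overlap at 14 of the 107 (13.1%), where the share over all was 13.0%, with 11 higher and 3 lower against 9.01% and 4.01% over all. Both member shares therefore lay near the background. Of the 107, 59 were higher and 48 lower after TAC, with a median difference of 0.03 against 0.05 over all probe sets. A difference of at least 2-fold was read at 7 member probe sets (6.54%, against 6.42% over all).

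Which probe sets had an unadjusted p under 0.05, and how they split by direction, depended on the scaling between arrays. With values as deposited 7 were higher and 3 lower after TAC. With arrays centred on their medians 2 were higher and 4 lower, after quantile normalization 3 and 5, and after cyclic loess 2 and 6. The members called were 5.61%, 7.48% and 7.48% in that order, against 7.48%, 7.95% and 7.96% over all tested probe sets. The split over all moved too, from 846 higher and 417 lower as deposited to 690 and 671 after centring. It was 816 and 630 after quantile normalization and 628 and 819 after cyclic loess. These counts are of the probe sets called under each scaling. Some of those named below were called in limma with values as deposited but under none of these other scalings. They were the named probe sets of Srsf4, Srsf11, Hnrnpd and Hnrnpu, and the named U2surp probe set that was higher after TAC. The rest of those named kept an unadjusted p under 0.05 in limma under each of these scalings. Each of the 10 named below kept its sign in those of the 16 alternatives that kept it past the filter, which is partly fixed by the absence of overlap between their groups. Leaving out 1 array moved the count to 5 with TAC 3 left out (3.82% over all probe sets) and to 5 with sham 2 left out (3.52% over all). With sham 3 left out it was 4 (4.25% over all), and with sham 1 left out it was 18 (13.4% over all). The spread of the members between arrays was somewhat smaller than that of all probe sets, with a median pooled SD of 0.40 against 0.51.

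**Figure D1:**
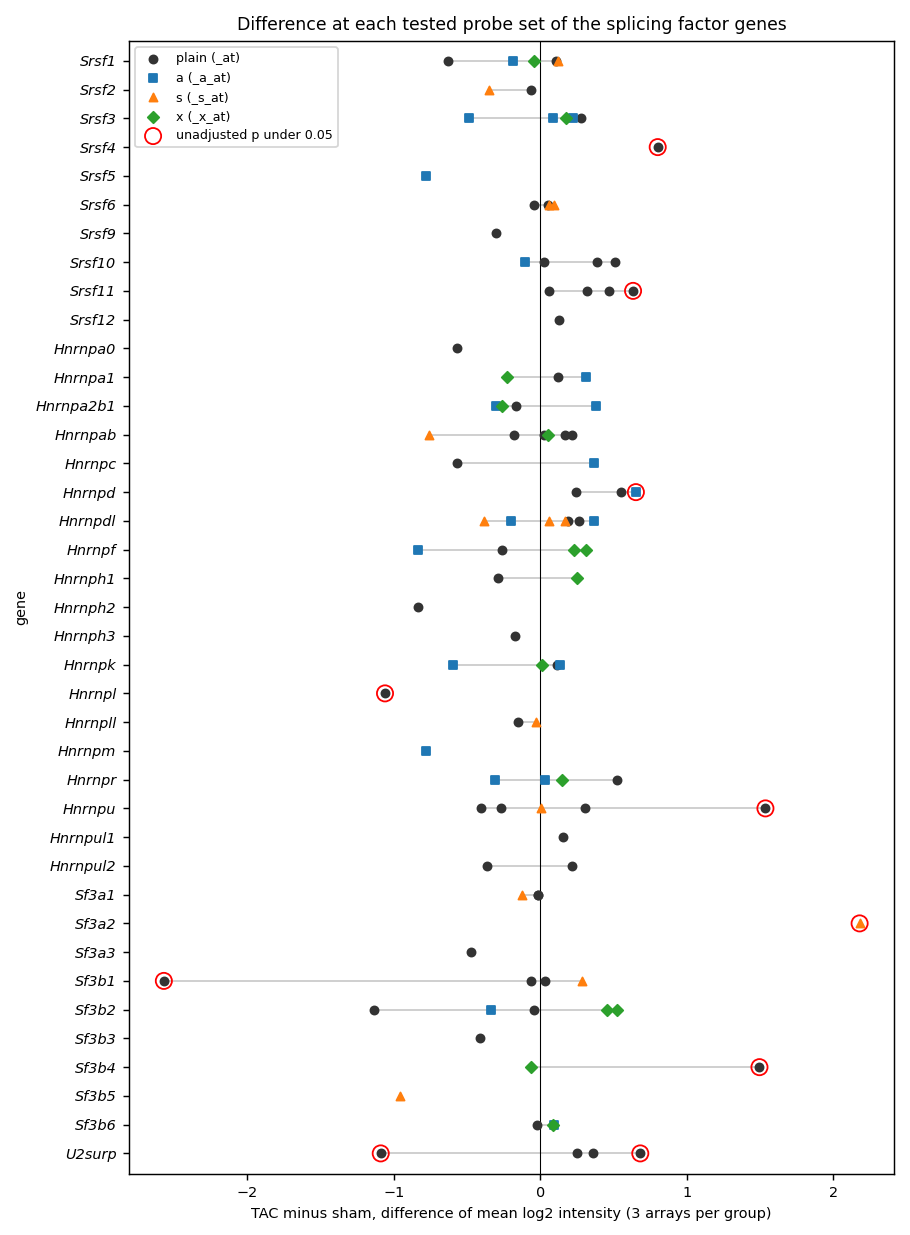
Difference in mean log2 intensity, TAC minus sham (3 arrays per group), on the horizontal axis for each of the 107 tested probe sets, with genes on the vertical axis. Symbols give the suffix class, grey lines join the probe sets of a gene and red circles mark the 10 with an unadjusted p under 0.05. At 20 of the 25 genes with several probe sets the points lie on both sides of 0.

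The SR protein genes, which mostly promote exon inclusion, had 28 tested probe sets for 10 genes, 18 of them higher and 10 lower (median 0.07). At an unadjusted p under 0.05 there were 2 (7.14%, against 6.94% over all), both higher after TAC. Srsf4 encodes a large SR protein that also regulates alternative splicing in nuclear speckles. Its only probe set (1448778_at) measured 8.93, 8.66 and 8.77 in TAC 1, 2 and 3 and 8.18, 7.90 and 7.87 in sham 1, 2 and 3. The groups did not overlap, and the spread within each was small. The difference was 0.80 ± 0.22 SE, or 1.74-fold (limma adjusted p = 0.526). Srsf11 encodes an SR-related protein that interacts with U2AF at the 3′ splice site. One of its 4 probe sets (1427269_at) measured 9.74, 9.42 and 9.67 after TAC and 9.22, 8.88 and 8.82 after sham, without overlap (difference 0.63 ± 0.24 SE, limma adjusted p = 0.682). Its other probe sets overlapped between groups and were also higher, at 0.32 (1452371_at), 0.47 (1430077_at) and 0.06 (1439095_at). At 1430077_at the value was 7.99 in sham 1 against 6.58 and 5.97 in the other sham arrays.

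The remaining SR genes overlapped between groups at every probe set. Srsf1, which encodes the SR protein SF2/ASF that also acts in mRNA export and translation, had the brightest SR probe set (1434972_x_at). It measured 12.58, 12.16 and 12.16 after TAC and 12.40, 12.39 and 12.22 after sham (difference -0.04 ± 0.23 SE), so the 6 arrays lay within 0.42. Its other 4 tested probe sets read -0.18, 0.12, 0.11 and -0.63. Srsf3, the smallest SR protein and a regulator of mRNA export, was read at 0.22, 0.09, 0.28, 0.18 and -0.48. Srsf6 was read between -0.05 and 0.09 by 4 probe sets. Srsf2, the speckle protein SC35, was read at -0.35 and -0.06. Srsf10, a splicing repressor when dephosphorylated, was read at 0.03, 0.39, 0.51 and -0.10. The single probe sets of Srsf5 (-0.78 ± 0.69 SE), Srsf9 (-0.30 ± 0.70 SE) and Srsf12 (0.12 ± 0.62 SE) had large errors. Srsf5 measured 8.79, 10.20 and 10.13 after TAC and 9.19, 11.45 and 10.82 after sham, with the lowest value of each group in replicate 1.

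The hnRNP genes had 54 tested probe sets for 19 genes, 30 higher and 24 lower (median 0.03), with 3 at an unadjusted p under 0.05 (5.56%, against 6.94% over all). Hnrnpd encodes AUF1, which binds AU-rich elements and controls mRNA decay. Its brightest probe set (1425142_a_at) measured 8.80, 8.79 and 8.98 after TAC and 8.46, 8.14 and 8.00 after sham. The groups did not overlap (difference 0.65 ± 0.23 SE, 1.57-fold, limma adjusted p = 0.658). The other probe sets of Hnrnpd overlapped and read 0.24 (1457568_at) and 0.55 (1458273_at), and both turned negative with array weights (-0.14 and -0.18). Hnrnpl encodes a protein that binds CA repeats and regulates exon choice. Its only tested probe set (1424101_at) was close to the filter, at 4.26, 4.22 and 3.58 after TAC and 4.41, 5.58 and 5.24 after sham. The difference of -1.06 ± 0.39 SE (limma adjusted p = 0.671) was -0.92 with values under 4 set to 4 and -1.73 with array weights.

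Hnrnpu encodes SAF-A, a large scaffold protein of chromatin and RNA, and its 5 probe sets gave different pictures. The probe set with the small p (1434391_at) measured 7.84, 5.87 and 6.56 after TAC and 5.68, 5.0 and 4.98 after sham (1.54 ± 0.54 SE higher, limma adjusted p = 0.637). Without TAC 1 the difference was 0.996, and without TAC 2 it was 1.98. The groups did not overlap, and replicate 1 was highest in both. Probe set 1434390_at also had its highest value of each group in replicate 1, at 7.92 in TAC 1 and 7.75 in sham 1 against 5.54 to 6.78 in the other arrays (difference 0.30 ± 0.80 SE). It turned to -0.28 without TAC 1 and to -0.14 without sham 3. The brightest probe set (1423050_s_at) measured 11.73, 12.02 and 11.56 after TAC and 11.38, 12.11 and 11.81 after sham, with group means equal to 2 decimals (11.77 each). The last pair, 1423051_at and 1450849_at, read -0.40 ± 0.28 SE and -0.27 ± 0.29 SE.

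**Figure D2:**
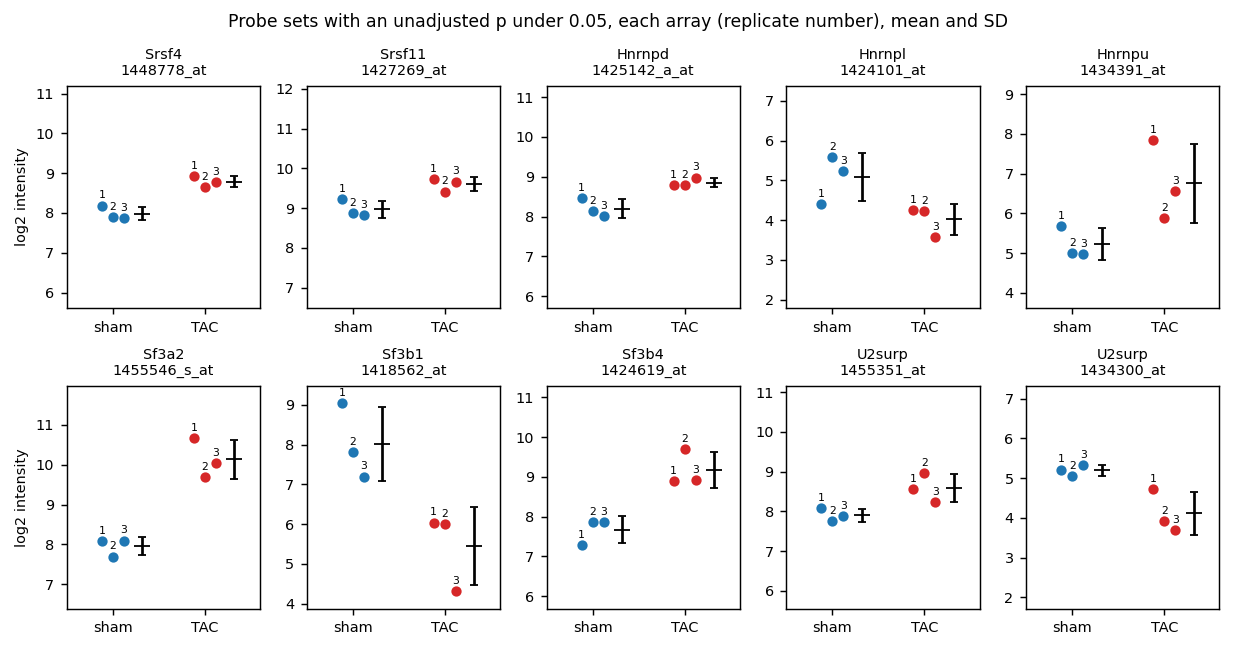
Log2 intensity (vertical axis, each panel spanning the same number of log2 units) in each sham and TAC array for the 10 member probe sets with an unadjusted p under 0.05, numbered by replicate, with the mean and SD of 3 arrays beside them. The groups do not overlap in any panel, and the largest gaps between group means are those of Sf3b1 (-2.57) and Sf3a2 (2.18).

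Some bright hnRNP probe sets varied little between arrays, while some dimmer ones of the same genes varied more. Hnrnpk, which encodes a poly(C)-binding protein active in transcription and translation, had the brightest member probe set (1460547_a_at). It measured 14.56, 14.70 and 14.49 after TAC and 14.44, 14.59 and 14.31 after sham (difference 0.14 ± 0.22 SE). Its second probe set (1454692_x_at) stayed within 0.13 over the 6 arrays, the smallest range of any tested member probe set. The other Hnrnpk probe sets had ranges of 1.62 (1423684_at, difference 0.11) and 2.05 (1448176_a_at, difference -0.59). Hnrnpf, which binds G-rich sequences, was read at 0.23 and 0.32 by its 2 brightest probe sets, both without overlap, and at -0.26 and -0.84 by the others, whose ranges over the arrays were 2.21 and 3.34. Hnrnpdl, a relative of Hnrnpd, had 5 probe sets higher and 2 lower, and the brightest (1424251_a_at) measured 12.42, 12.14 and 12.30 after TAC against 11.77, 12.02 and 11.97 after sham without overlap (0.37 ± 0.22 SE, limma adjusted p = 0.883). Hnrnpr had 1 of 4 without overlap (1429232_at, 0.53 ± 0.30 SE) and a range over its probe sets from -0.31 to 0.53. Of the 54 hnRNP probe sets, 7 were without overlap (13%, as over all tested probe sets).

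The others overlapped between groups. Hnrnph2, an X-linked relative of Hnrnph1, had the lowest unadjusted p of these at 0.0574 in limma (difference -0.83 ± 0.36 SE, limma adjusted p = 0.734), with 10.34, 10.77 and 9.93 after TAC and 10.63, 11.49 and 11.41 after sham. Hnrnph1 was read at -0.29 and 0.25, and Hnrnph3 at -0.17. Of the genes of the A and B group, which often repress exons, Hnrnpa0 was read at -0.57, Hnrnpa1 at 0.31, -0.23 and 0.12, Hnrnpa2b1 from -0.30 to 0.38 and Hnrnpab from -0.76 to 0.21. Hnrnpc, which guards against inclusion of cryptic exons, was read at 0.37 and -0.57. Hnrnpm was read at -0.78 ± 0.80 SE, Hnrnpll, a regulator of Ptprc splicing in lymphocytes, at -0.15 and -0.03, Hnrnpul1 at 0.15 and Hnrnpul2 at -0.37 and 0.21.

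The SF3 complexes held the largest single differences of the members, each at 1 probe set. SF3a had 5 tested probe sets for 3 genes, 1 higher and 4 lower. Sf3a2 encodes a zinc finger subunit needed for the U2 snRNP to join the branch point. Its tested probe set (1455546_s_at) measured 10.67, 9.69 and 10.05 after TAC and 8.08, 7.69 and 8.09 after sham. The lowest TAC array lay above the highest sham array by more than either group's range. The difference was 2.18 ± 0.32 SE, or 4.53-fold (unadjusted p = 0.000477, limma adjusted p = 0.384). The suffix s marks a probe set whose probes match several transcripts, which can belong to different genes. The second probe set of Sf3a2 (1450576_a_at) was below the filter, between 1.85 and 1.91 on all 6 arrays, and does not bear on the difference. The partners of Sf3a2 in the complex read lower or near 0, with Sf3a3 at -0.48 ± 0.41 SE and Sf3a1 at -0.02, -0.13 and -0.01.

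SF3b had 16 tested probe sets for 6 genes, 7 higher and 9 lower (median -0.03), with 2 at an unadjusted p under 0.05 (12.5%, against 6.94% over all), 1 in each direction. Sf3b1 encodes the largest subunit, which clamps the branch point and is the target of several splicing inhibitors. One of its probe sets (1418562_at) measured 6.04, 6.0 and 4.31 after TAC and 9.04, 7.82 and 7.20 after sham. The groups did not overlap, and their SDs were 0.99 and 0.94 (-2.57 ± 0.66 SE, limma adjusted p = 0.495). The other 3 probe sets of Sf3b1 overlapped between groups, at 0.29 ± 0.23 SE (1440818_s_at), 0.03 ± 0.23 SE (1449138_at) and -0.07 ± 0.40 SE (1418561_at). The brightest of them, 1440818_s_at, measured 12.51, 12.23 and 12.28 after TAC and 12.28, 11.95 and 11.94 after sham.

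Sf3b4 encodes the RNA-binding subunit SF3b49, whose human counterpart is mutated in Nager syndrome. One probe set (1424619_at) measured 8.89, 9.69 and 8.92 after TAC and 7.28, 7.87 and 7.86 after sham without overlap (1.5 ± 0.33 SE, 2.82-fold, limma adjusted p = 0.46). The brighter one (1436784_x_at) measured 10.60, 9.02 and 10.43 after TAC and 10.46, 9.63 and 10.17 after sham (-0.07 ± 0.49 SE), and read 0.43 without TAC 2. The remaining SF3b genes overlapped between groups. Sf3b2 was read at 0.46, 0.52, -0.04, -0.34 and -1.13, Sf3b3 at -0.41, Sf3b5 at -0.95 ± 0.75 SE, and Sf3b6, the branch point contact p14, at 0.09, 0.09 and -0.02.

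U2surp had 2 of its 4 probe sets at an unadjusted p under 0.05 (50%, against 6.94% over all), in opposite directions. Probe set 1455351_at measured 8.56, 8.95 and 8.24 after TAC and 8.08, 7.75 and 7.89 after sham (0.68 ± 0.27 SE, limma adjusted p = 0.706). Probe set 1434300_at measured 4.71, 3.92 and 3.70 after TAC and 5.22, 5.05 and 5.33 after sham (-1.09 ± 0.33 SE, limma adjusted p = 0.56), and -0.96 with values under 4 set to 4. The groups overlapped at neither. Probe set 1434300_at passed the filter through its sham arrays, since only TAC 1 of the TAC arrays reached 4. The brightest probe set (1454914_at) measured 8.81, 9.13 and 8.82 after TAC and 8.21, 8.85 and 8.95 after sham (0.25 ± 0.29 SE), and 1455352_at read 0.36 ± 0.45 SE.

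Agreement between probe sets of 1 gene was low. Of the 25 member genes read by more than 1 tested probe set, 20 gave both signs, 2 were higher at every probe set (Srsf11 and Hnrnpd) and 3 lower at every one (Srsf2, Hnrnpll and Sf3a1). Of 148 pairs of probe sets of the same member gene, 74 shared their sign, and over all genes 4480 of 8181 pairs did (54.8%). Pairs without an s or x suffix gave 52.9% for members and 53.2% over all. The pairs of a gene share probe sets and arrays, so they are not independent. The brightest probe set of each gene was higher after TAC at 21 of 39 members (53.8%, against 58.7% of all genes read this way) and lower at 18. Of the 39, 4 had an unadjusted p under 0.05 (10.3%, against 7.29%).

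Whether probe sets of 1 gene differed in their change was tested on their log2 ratio to the gene's brightest probe set. In limma, 0 of 5465 such ratios over all genes had an adjusted p under 0.05 (0%), and 577 had an unadjusted p under 0.05 (10.6%). Among the 68 ratios of 25 member genes there were 3 (4.41%), those of Sf3b1, U2surp and Sf3b2. The Sf3b1 ratio of 1418562_at to 1440818_s_at was -6.47, -6.23 and -7.97 after TAC and -3.24, -4.13 and -4.74 after sham, a difference of -2.85 ± 0.60 SE (limma adjusted p = 0.237). The U2surp ratio of 1434300_at to 1454914_at was -4.10, -5.21 and -5.12 after TAC and -3.00, -3.80 and -3.62 after sham (-1.34 ± 0.42 SE, limma adjusted p = 0.357). Groups did not overlap at either. The Sf3b2 ratio of 1456040_at to 1438637_x_at was -8.88, -8.11 and -9.28 after TAC and -8.27, -6.87 and -6.36 after sham, with overlap (-1.59 ± 0.58 SE, limma adjusted p = 0.41). Probe set 1456040_at itself measured 2.98, 4.40 and 3.09 after TAC and 3.20, 5.06 and 5.61 after sham. Like 1434300_at of U2surp, it lay partly under the filter value of 4. With the Gapdh control difference of each array as a covariate, the Sf3b1 ratio (-3.07, limma adjusted p = 0.0291) and the U2surp ratio (-1.52, limma adjusted p = 0.0363) passed, among 378 of the 5465. In that fit 0 of the 18188 single probe sets passed.

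The suffix class of a probe set, which says how its probes were designed, went with its spread. Plain probe sets match 1 transcript, those with a match several transcripts of 1 gene, those with s match several transcripts that can belong to different genes and those with x hold probes that may cross-hybridise. The members had 58 plain, 21 a, 14 s and 14 x probe sets past the filter. Their median pooled SD between arrays was 0.48, 0.41, 0.43 and 0.22 in that order, and over all tested probe sets it was 0.54, 0.49, 0.47 and 0.35. Of the 10 member probe sets with an unadjusted p under 0.05, 8 were plain, 1 a, 1 s and 0 x. These are 13.8%, 4.76%, 7.14% and 0% of the members of each class, against 5.96%, 8.33%, 9.62% and 10.8% over all tested probe sets. The median difference was 0.03 for plain, -0.10 for a, 0.03 for s and 0.12 for x member probe sets, and 0.04, -0.04, 0.08 and 0.18 over all.

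**Figure D3:**
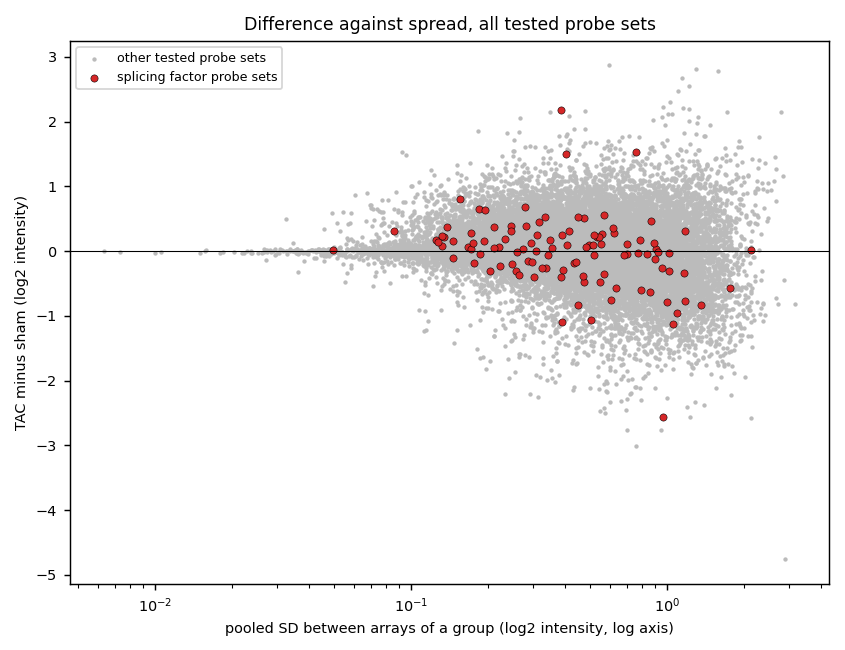
Difference TAC minus sham in log2 intensity (vertical axis) against the pooled SD between arrays of a group (horizontal log axis) for all 18188 tested probe sets in grey and the 107 splicing factor probe sets in red. The red points lie within the grey cloud, with a median SD of 0.40 against 0.51 over all.

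Replicate 1 was often the lowest array of both groups. At 48 of the 107 member probe sets (44.9%) the lowest TAC array was TAC 1 and the lowest sham array was sham 1, the arrays with the largest Gapdh control difference, and over all tested probe sets this held for 44.1%. At 18 members (16.8%, against 19.9% over all) these arrays were instead the highest of both groups. At 11 genes both kinds of probe set were found. The range over the 6 arrays exceeded 2 on the log2 scale at 23 member probe sets, and 15 of these were lowest in TAC 1 and sham 1. Hnrnpab shows both kinds. Its probe set 1448144_at measured 4.0, 7.48 and 5.85 after TAC and 2.94, 7.10 and 7.23 after sham, whereas 1426114_at measured 8.21, 6.85 and 7.82 and 8.35, 6.63 and 7.39. Its brightest probe set (1455855_x_at) stayed between 12.13 and 12.64. The difference between groups was 0.02 ± 1.41 SE, 0.17 ± 0.55 SE and 0.06 ± 0.24 SE at these probe sets. Hnrnpc also had a probe set that was lowest in replicate 1 of both groups, with 5.80, 8.17 and 6.03 after TAC and 4.80, 8.73 and 8.18 after sham at 1418693_at and between 12.17 and 12.98 at 1460240_a_at. The Gapdh control difference was largest and the array median lowest in the same arrays, and their parts were not told apart. The part of the Gapdh difference in these values was not tested for single probe sets beyond the fit with it as a covariate. There 18 members had an unadjusted p under 0.05 (16.8%, against 21.1% over all) and 0 an adjusted p under 0.05.

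**Figure D4:**
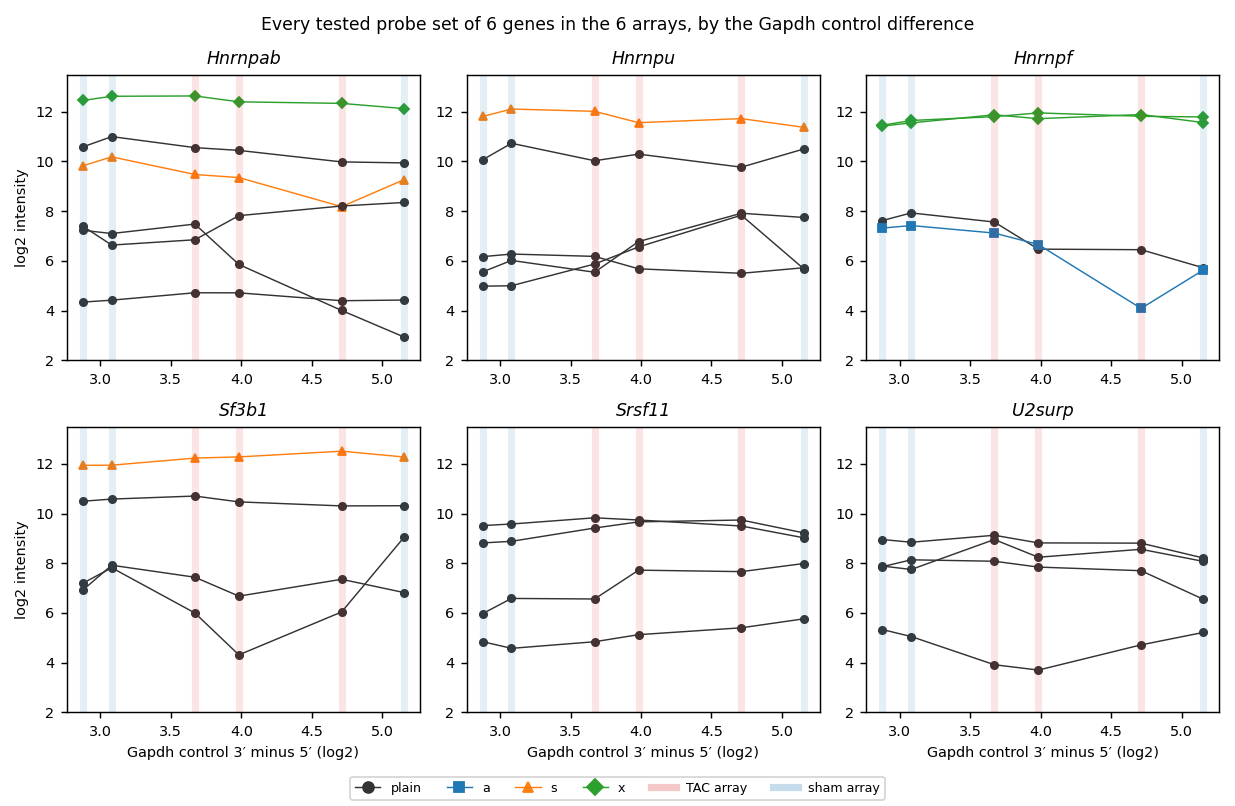
Log2 intensity (vertical axis) of every tested probe set of 6 genes in the 6 arrays, placed by the Gapdh control 3′ minus 5′ difference (horizontal axis, log2), with red bands at TAC and blue bands at sham arrays. Within Hnrnpab and Hnrnpu some probe sets are lower and others higher in the arrays at the right, TAC 1 at 4.71 and sham 1 at 5.15, and the brightest ones are nearly level. A dim Hnrnpab probe set (1431349_at) is level too, with a range of 0.38 against 0.51 for the brightest.

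Other genes of the splicing pathway were followed in 7 lists of 114 genes, of which 99 had a tested probe set. The brightest probe set stood for each gene. Of the 99, 58 were higher after TAC (58.6%, against 58.7% of all genes read this way) and 41 lower. The median was 0.07, against 0.09 over all genes. Of the 99, 0 had a limma adjusted p under 0.05 and 7 an unadjusted p under 0.05 (7.07%, against 7.29%). All 7 were higher, as were 625 of the 742 over all genes. SR protein partners and kinases were higher at 11 of 14 (median 0.22), among them Clk2, a kinase that phosphorylates SR proteins (8.02 ± 0.31 SD against 7.26 ± 0.01, difference 0.76 ± 0.25 SE, limma adjusted p = 0.587) and Srpk3 (1.72 ± 0.69 SE). Next to SF3 at the branch point, 5 of 11 genes were higher (median -0.18). They included both subunits of the factor that reads the 3′ splice site, U2af2 at 0.92 ± 0.32 SE without overlap and U2af1 at -1.04 ± 0.46 SE with overlap (limma adjusted p = 0.627 and 0.752).

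U1 snRNP and Sm core genes were higher at 4 of 7 (median 0.00061), with Snrnp70 at -0.80 ± 0.37 SE and Snrpd3 at -1.53 ± 0.70 SE, whose other probe set read 0.07. Genes of the U4, U5 and U6 snRNPs were higher at 10 of 17 (median 0.25), with the U5 GTPase gene Eftud2 at 0.95 ± 0.32 SE, its 2 other probe sets also higher, and Sart1 at 0.65 ± 0.24 SE. The Prp19 complex and the genes of the catalytic step were higher at 5 of 14 (median -0.06), with Dhx16 at 0.44 ± 0.27 SE and Prpf19 at 0.43 ± 0.28 SE, although the 2 other probe sets of Prpf19 read -0.80 and -0.79. Of the exon junction complex 1 of 3 was higher, with Casc3 at -0.50 ± 0.30 SE and Rbm8a at -0.43 ± 0.42 SE. Among hnRNP-like and other regulators 22 of 33 were higher (median 0.13). Pcbp4, a poly(C)-binding protein gene, measured 8.14 ± 0.24 SD after TAC and 6.89 ± 0.27 after sham (1.26 ± 0.26 SE, limma adjusted p = 0.417), although its 2 other probe sets read -0.45 and -0.02. Khsrp, an mRNA decay and splicing factor gene, read 0.97 ± 0.38 SE at an x probe set and -0.57 and -0.30 at the others.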

How the data were processed

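The deposited values are linear-scale intensities, 1 for each probe set on each array. It was made with GCRMA, per the submitters' processing notes (version and options not given in the sources used here). Values were taken to log2. Tests left out 64 array controls, and 932 probe sets with several symbols were not named. The filter required a log2 value of 4 on 3 or more arrays. Groups were compared by limma (version 3.58.1, under R 4.3.3), using its functions lmFit and eBayes without covariates, on all 18188 probe sets that passed. P-values were 2-sided and Benjamini-Hochberg adjusted over all of these, and 0.05 was the threshold. Ratios between probe sets of a gene were fitted likewise over all genes. Array measures were compared with exact permutation tests in scipy 1.17.1. The fits were also run on simulated data with noise independent between probe sets, which does not test the p-values where arrays shift as a whole. The number of arrays limits the precision, with a median SE of 0.33 over the member probe sets, and intensities of different probe sets are not comparable as levels. Samples with the same number come from different animals, so they were not treated as pairs. Deviations from the group means correlated at 0.76, 0.78 and -0.22 for numbers 1, 2 and 3, and at 0.71 between TAC 2 and sham 3. A batch shared by number was not tested beyond the fit with the number as a block.

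The members and gene lists were chosen with earlier results of these data known. Values in each array are given for probe sets with an unadjusted p under 0.05, the other tested probe sets of their genes where they bear on them, the brightest probe set of each family and ratios with an unadjusted p under 0.05. From each list the 2 genes with the smallest p are named. Other members with values in each array were chosen after their values were seen. Probe sets are given without coordinates.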

Additional observations from a re-analysis of the deposited data

How the results depend on the processing

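The 10 member probe sets with an unadjusted p under 0.05 kept their sign in each of the 16 alternatives that held them. Where an array was left out the sign could not turn, because the groups did not overlap. It was also fixed where only the filter or the block changed. Of the 10, 9 had a limma adjusted p under 0.05 with array weights and 0 in any other alternative. Array weights gave 6698 probe sets and 2556 ratios past the threshold over all genes and 44 members at an unadjusted p under 0.05 (41.1%, against 48.1% over all), with most weight on TAC 3 (6.11, against 0.143 for sham 1), and the cause was not tested. The count of 10 members was 6 with arrays centred on their medians (5.61%, against 7.48% over all). It was 18 with the Gapdh covariate (16.8%, against 21.1% over all), which called 378 ratios. With a filter at a mean log2 value of 6, 1 ratio passed. The replicate number as a block gave 19 members (17.8%, against 16.5% over all) and 0 adjusted calls. The numbers share no animal, and TAC 1 and TAC 2 correlated best with their own numbers while TAC 3 did not. Leaving out an array gave 4 to 18 members at an unadjusted p under 0.05 (3.74% to 16.8%, against 3.52% to 13.4% over all). Without overlap there were 18 to 38 members (16.8% to 35.5%, against 16.4% to 36.7% over all), where fewer arrays make an overlap rarer.

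Signs turned at 10 other probe sets of these genes, with differences from -0.07 to 0.55. With array weights Hnrnpu 1423050_s_at read -0.35, Sf3b4 1436784_x_at 0.45, Sf3b1 1449138_at -0.060, U2surp 1454914_at -0.051 and 1455352_at -0.11, and Hnrnpd 1457568_at -0.14 and 1458273_at -0.18. Hnrnpu 1423050_s_at also read -0.025 after centring, -0.064 after quantile normalization and -0.11 after cyclic loess, and Sf3b1 1449138_at read -0.030 and -0.084 in the last pair. With the Gapdh covariate Sf3b1 1418561_at read 0.013, Hnrnpu 1434390_at -0.16 and Srsf11 1439095_at -0.14. Over left-out arrays these lay from -0.27 to 0.28 (Sf3b1 1418561_at), -0.19 to 0.17 (Hnrnpu 1423050_s_at), -0.28 to 0.96 (Hnrnpu 1434390_at), -0.36 to 0.43 (Sf3b4 1436784_x_at), -0.18 to 0.41 (Srsf11 1439095_at), -0.076 to 0.12 (Sf3b1 1449138_at), -0.12 to 0.67 (U2surp 1455352_at) and -0.13 to 0.48 (Hnrnpd 1457568_at). The median difference of the members stayed between -0.14 and 0.18.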
